A study of Mus musculus with 12 samples.

Results

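Transcripts of 9 receptors through which hormones and calcium act on the distal nephron were measured in sorted mouse kidney tubules. They were the calcium-sensing receptor Casr, the calcitonin receptor Calcr, the vasopressin receptors Avpr2 and Avpr1a, the parathyroid hormone receptor Pth1r, the beta-1 adrenergic receptor Adrb1, the glucagon receptor Gcgr, the insulin receptor Insr and the epidermal growth factor receptor Egfr. Every array probe carrying 1 of these gene names was taken, with Pth1r under its older name Pthr1, which gave 16 of 41174 probes. Casr, Avpr2, Avpr1a, Pth1r, Gcgr and Insr had 1 probe each, Calcr and Adrb1 had 2 each, and Egfr had 6. Renal tubules of 4 mice, mice 1 and 3 female and mice 2 and 4 male, were separated on a COPAS, a flow sorter for large particles. The EGFP+ fraction held fluorescent distal convoluted tubules (DCT), the EGFP- fraction tubules without fluorescence, and the ALL fraction the total suspension. RNA of each fraction of each mouse was hybridised to 1 array, so n = 4 mice per fraction. The promoter that drives EGFP, the strain, and the ages of the mice are not stated in any source used here.

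These receptors belong to a few signalling classes. Calcr, Avpr2, Pth1r, Adrb1 and Gcgr act mainly through the stimulatory G protein and adenylyl cyclase, which makes cyclic AMP. Avpr1a acts mainly through Gq and phospholipase C, and Casr, a G protein-coupled receptor that binds extracellular calcium, through Gq and Gi. Insr and Egfr are receptor tyrosine kinases. In the kidney, Casr is best known from the thick ascending limb, Avpr2 from the collecting duct, Pth1r from the proximal tubule and the distal nephron, and Egfr from its ligand EGF, which supports magnesium reabsorption in the DCT.

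Each probe is a 60-base oligonucleotide. The sequences of 6 probes, 1 for each of 6 receptors, are given so that the stretch of transcript behind a value can be found. Casr, Calcr and Adrb1 were higher in EGFP+ tubules, Pth1r and Egfr were lower, and Insr did not pass the test. Each has a reading frame without a stop codon over its whole length. All are written 5′ to 3′ as in the array files, with no letters in capitals because the whole probe binds, and positions are in the mm8 mouse genome.
Casr, chr16:36413782-36413841, minus strand: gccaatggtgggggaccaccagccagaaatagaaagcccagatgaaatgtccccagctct
Calcr (A_52_P554768), chr6:3650150-3650209, minus strand: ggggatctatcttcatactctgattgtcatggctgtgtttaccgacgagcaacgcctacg
Adrb1 (A_51_P203827), chr19:56776002-56776061, plus strand: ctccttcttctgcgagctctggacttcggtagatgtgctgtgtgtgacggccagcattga
Pth1r, chr9:110567158-110567217, minus strand: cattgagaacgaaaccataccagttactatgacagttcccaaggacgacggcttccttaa
Egfr (A_52_P56471), chr11:16783545-16783604, plus strand: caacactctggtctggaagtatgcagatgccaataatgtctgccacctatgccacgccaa
Insr, chr8:3159473-3159532, minus strand: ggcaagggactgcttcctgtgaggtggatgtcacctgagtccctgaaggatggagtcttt

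All levels below are log2 signals on a scale where 0 is the 75th percentile of the array, listed for mice 1, 2, 3 and 4 in that order, and levels of different probes are not compared. That percentile lay between signals of 922.2 and 2270, and by the scanner software's call 53.95% to 65.61% of an array's probes stood well above background. Mouse 4 gave the dimmest arrays, in ALL and EGFP-. The DCT transporter Slc12a3 was 331-fold higher in EGFP+ than in EGFP- tubules, and all 7 DCT markers rose. All 10 proximal tubule markers were lower, and their summed level in EGFP+ tubules was highest in mouse 2, at 5.40, against 3.85 to 4.96 in the other mice. With RNA of sorted tubules, fewer cells of a type and less RNA per cell cannot be told apart.

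Of the 16 receptor probes, 15 passed the filter (at least 4 of the 12 arrays well above background). Between EGFP+ and EGFP- tubules 6 of the 15 rose, 7 fell and 2 did not pass the threshold, an adjusted p of 0.05 in limma. Over all 25819 tested probes 56.7% were called, 32.8% higher and 23.9% lower, so most of the tested probes differed between these fractions. A probe of Calcr, A_52_P554768, entered the test only because it was detected in EGFP+ tubules, so that its place among the 6 and among the 13 below is no support for a difference. The median difference was -0.42 over the receptor probes and 0.15 over all tested probes. The probes that rose were those of Adrb1, Casr, Gcgr and Calcr, and the probes that fell were those of Egfr, Avpr2 and Pth1r. Values of the fractions did not overlap for 13 of the 15, against 54.4% of all probes with a value on every array. Egfr gave 5 of the 15 tested probes, all among the 7 that fell, and Adrb1 and Calcr gave 2 each. Probes of 1 gene are not independent, so these counts and the median are weighted towards those genes.

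**Figure D1:**
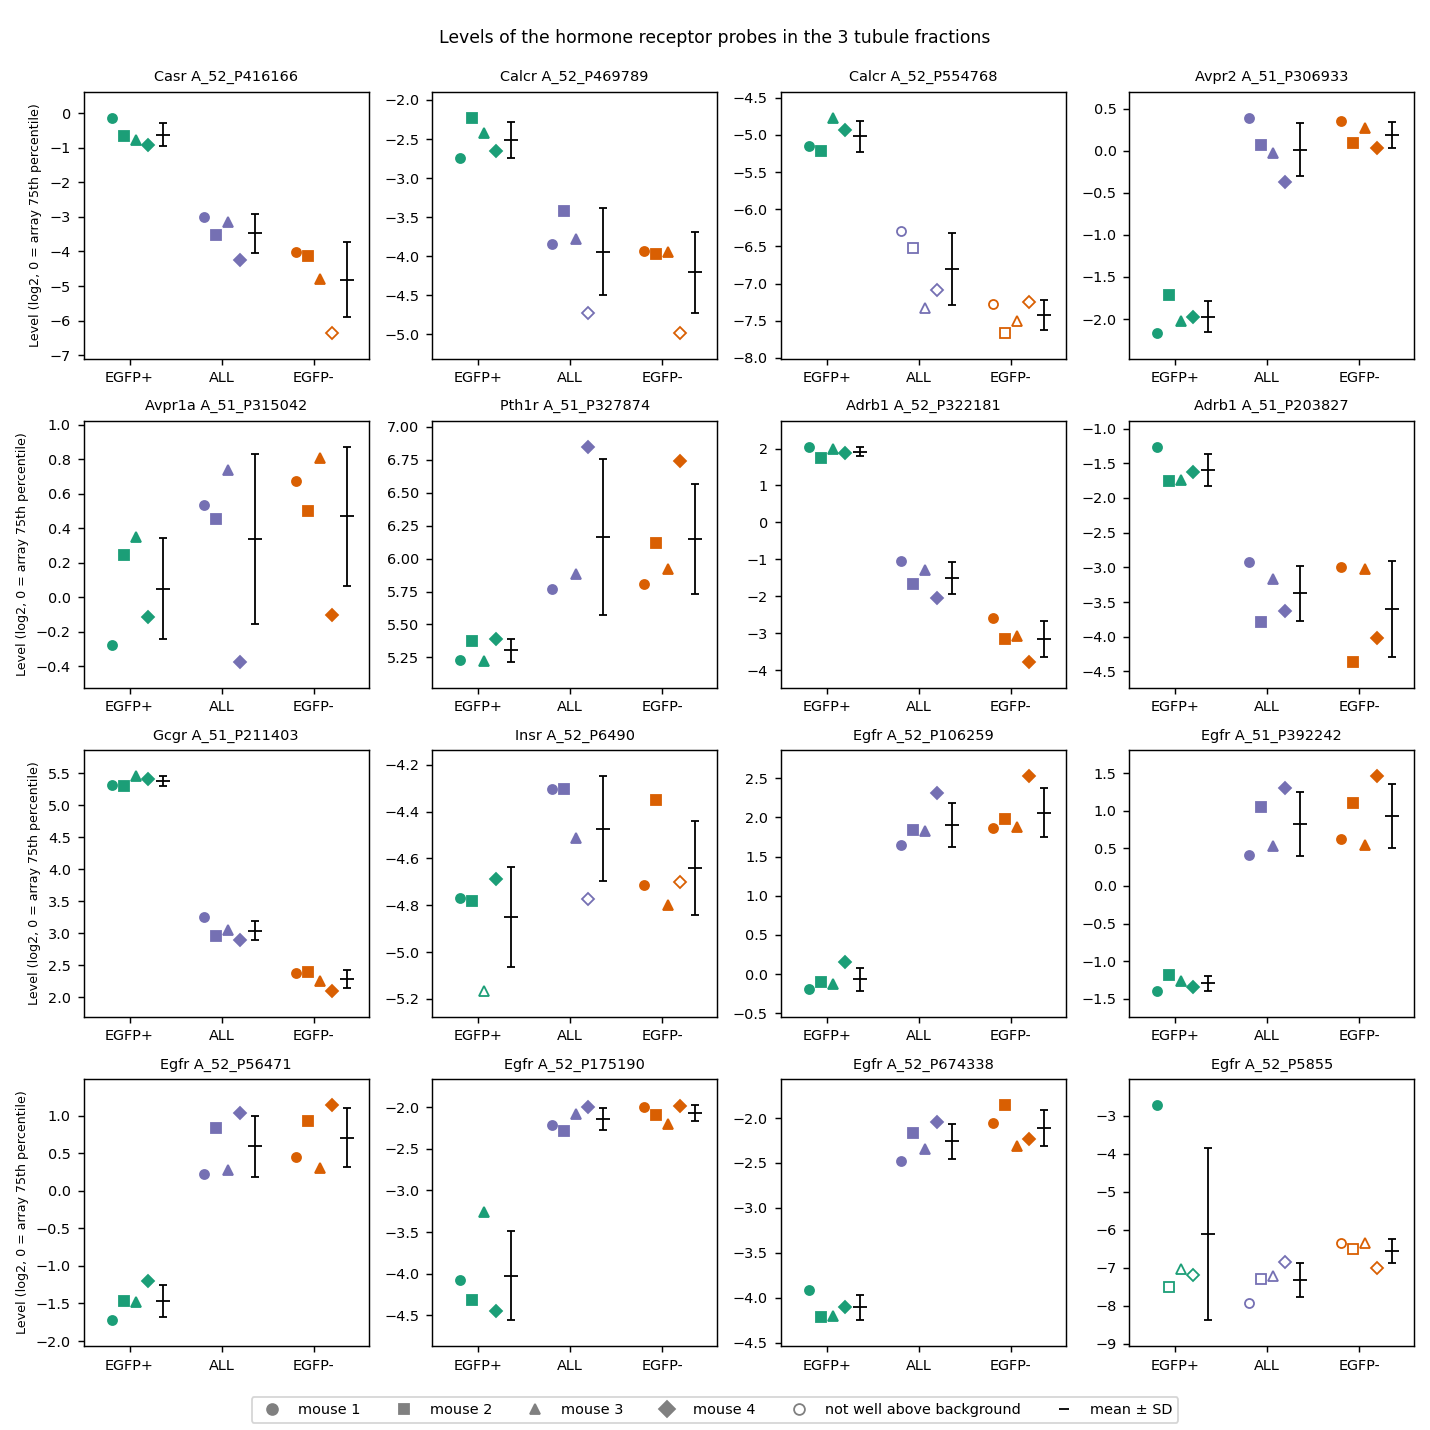
Levels of the 16 receptor probes, 1 panel per probe, with the vertical axis in log2 units above or below the array's 75th percentile and its own range in each panel. Symbols are mice, open symbols are spots not well above background, and bars are mean ± SD (n = 4 mice, 3 for Pth1r in ALL). The 4 EGFP+ values of Gcgr, between 5.30 and 5.46, lie above its ALL values and those above its EGFP- values.

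Adrb1 encodes the adrenergic receptor that answers noradrenaline and adrenaline by raising cyclic AMP, and 1 of its 2 probes held the largest difference among the receptors. Its probe A_52_P322181 (chr19:56777975-56778034, plus strand), which the array file ties to an expressed sequence tag, read 2.04, 1.75, 1.99 and 1.87 in EGFP+ tubules. In the ALL fraction it read -1.03, -1.66, -1.28 and -2.03, and in EGFP- tubules -2.60, -3.15, -3.06 and -3.77. The fractions stood in the order EGFP+, ALL, EGFP- without overlap. EGFP+ exceeded EGFP- by 5.06 ± 0.25 (SE), or 33.3-fold (95% confidence interval 22.7 to 49.0, adjusted p = 1.5e-08), and ALL by 3.41, or 10.7-fold (adjusted p = 4.7e-07). With normexp background correction the excess over EGFP- was 20.8-fold (4.38, adjusted p = 3.46e-08). The ALL fraction was also above EGFP- tubules, by 1.65 or 3.13-fold (adjusted p = 0.0067, with 1.57, 1.68 and 1.38 within slides 1, 2 and 3, each of which holds 4 arrays scanned together). That last call was lost without mouse 2 (1.70, adjusted p = 0.129) and without mouse 3 (1.60, adjusted p = 0.155). Here and below, a difference within a slide is between the means of its arrays, whatever their mouse, so mice are not kept paired. On slide 2 the EGFP+ array is of mouse 3, a female, and the EGFP- array of mouse 2, a male.

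The other Adrb1 probe, whose sequence is given above, starts 1973 bases upstream and showed a smaller difference, below those of Casr and Gcgr. It read -1.26, -1.75, -1.75 and -1.63 in EGFP+, -2.93, -3.78, -3.16 and -3.62 in ALL, and -3.00, -4.36, -3.03 and -4.02 in EGFP- tubules. Every EGFP+ value was above every value of the other fractions, while ALL and EGFP- overlapped. EGFP+ was 4.02-fold above EGFP- (2.01 ± 0.31 SE, adjusted p = 1.7e-04) and 3.43-fold above ALL (adjusted p = 4.9e-04), the latter 2.07-fold with normexp (adjusted p = 0.00793). ALL and EGFP- differed by 0.23 (95% confidence interval -0.46 to 0.91, adjusted p = 1). The EGFP+ against EGFP- difference was larger at A_52_P322181 in 4 of 4 mice, by 3.05 ± 0.62 (SD). Within the slides A_52_P322181 differed by 4.49, 5.14 and 5.29 and A_51_P203827 by 1.49, 2.62 and 1.90.

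Gcgr, the receptor through which glucagon raises cyclic AMP, was the receptor with the smallest standard error in the fit. Its probe (A_51_P211403, chr11:120355018-120355078, plus strand) read 5.32, 5.30, 5.46 and 5.42 in EGFP+, 3.25, 2.96, 3.06 and 2.90 in ALL, and 2.39, 2.40, 2.26 and 2.10 in EGFP- tubules. The 3 fractions stood in the order EGFP+, ALL, EGFP- and did not overlap. EGFP+ was 8.49-fold above EGFP- (3.09 ± 0.11 SE, 95% confidence interval of the fold 7.16 to 10.1, adjusted p = 2.3e-09), with differences of 2.92, 3.06 and 3.24 within slides 1, 2 and 3. It was 5.02-fold above ALL (adjusted p = 2.1e-08), and ALL was 1.69-fold above EGFP- (0.76, adjusted p = 0.0050, with 0.87, 0.61 and 0.72 within slides). The call between ALL and EGFP- was lost without mouse 1, 2 or 3 (adjusted p = 0.0749, 0.0717 and 0.140) and with normexp background correction (adjusted p = 0.0555). The direction stayed the same in each of these fits, with differences of 0.72, 0.82, 0.74 and 0.64. Markers of neighbouring segments moved with Gcgr, Adrb1 and Calcr. All 6 late DCT and connecting tubule markers were higher in EGFP+ than in EGFP- tubules (median 3.09), with summed levels of 9.002 to 9.353 against 6.90 to 7.12, and 5 of 7 thick ascending limb markers were higher. Their part in these differences was not tested.

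Casr, by which tubule cells sense calcium outside the cell, was also richer in EGFP+ tubules. Its probe (A_52_P416166) read -0.13, -0.66, -0.78 and -0.91 in EGFP+, -3.00, -3.53, -3.15 and -4.24 in ALL, and -4.01, -4.12, -4.79 and -6.36 in EGFP- tubules. The EGFP+ values stood clear of both other fractions, which overlapped each other, and the EGFP- spot of mouse 4 was not well above background. EGFP+ was 18.4-fold above EGFP- (4.20 ± 0.46 SE, 95% confidence interval of the fold 9.08 to 37.1, adjusted p = 1.0e-05) and 7.25-fold above ALL (2.86, adjusted p = 2.7e-04). Within slides the EGFP+ against EGFP- difference was 3.61, 3.34 and 4.67. With normexp background correction the excess over EGFP- was 8.32-fold (3.06, adjusted p = 2.72e-06) and that over ALL 3.58-fold (1.84, adjusted p = 2.23e-04). ALL exceeded EGFP- by 1.34 in the mean and in 4 of 4 mice, which did not pass after adjustment (adjusted p = 0.58). Thick ascending limb markers moved with Casr in part: 5 of 7 were higher and 2 lower in EGFP+ than in EGFP- tubules, and their summed level was 8.04 to 8.37 in EGFP+ and 6.48 to 6.81 in EGFP- tubules. Slc12a1, the cotransporter that defines that limb, was 1.69-fold higher and the claudin Cldn10 33.0-fold lower. The part of that limb in the Casr difference was not tested.

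Calcr, which binds calcitonin and raises cyclic AMP, had 2 probes on chromosome 6 that start 14210 bases apart. A_52_P469789 (chr6:3635940-3635999, minus strand) read -2.74, -2.23, -2.43 and -2.66 in EGFP+, -3.84, -3.42, -3.78 and -4.72 in ALL, and -3.94, -3.97, -3.94 and -4.98 in EGFP- tubules. All EGFP+ values were above the others, ALL and EGFP- overlapped, and the ALL and EGFP- spots of mouse 4 were not well above background. EGFP+ was 3.24-fold above EGFP- (1.70 ± 0.30 SE, adjusted p = 4.3e-04, with 1.46, 1.55 and 1.81 within slides) and 2.69-fold above ALL (1.43, adjusted p = 0.0016). The difference from ALL was not past the threshold with normexp background correction (0.76, adjusted p = 0.099). ALL and EGFP- differed by 0.27 (95% confidence interval -0.38 to 0.92, adjusted p = 1).

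A_52_P554768, the Calcr probe printed above, was dim. It read -5.16, -5.22, -4.77 and -4.94 in EGFP+ tubules and was well above background in all 4 mice there, the only arrays on which it was, so it entered the test through that fraction alone. In ALL it read -6.30, -6.52, -7.33 and -7.08 and in EGFP- tubules -7.27, -7.66, -7.51 and -7.25. EGFP+ was therefore at least 1.23-fold above EGFP- and at least 1.5-fold above ALL. The limma p-values belong to the fitted differences, 2.40 from EGFP- (adjusted p = 1.9e-06) and 1.79 from ALL (adjusted p = 2.8e-05), and not to the bounds. They rest on signals below detection in the dimmer fraction. For the bounds each dim array was given its own detection limit, the faintest signal called well above background there, or the probe's signal where that was higher, and the EGFP+ mean was set against their mean. With normexp background correction the fitted difference from EGFP- went from 2.40 to 1.49 (adjusted p = 0.0394), and that from ALL was not past the threshold (0.32, adjusted p = 0.743).

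**Figure D2:**
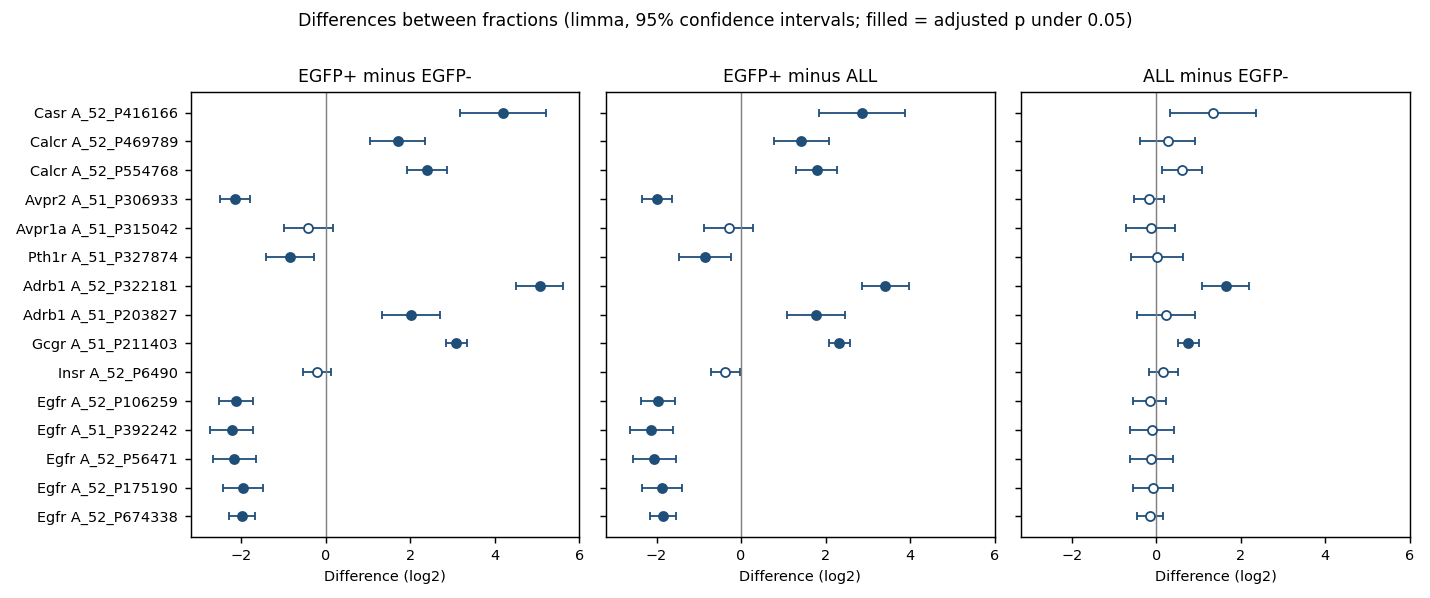
Differences between fractions for the 15 tested receptor probes on the log2 scale, with 95% confidence intervals from limma (12 arrays). Filled points passed an adjusted p of 0.05: 13 of EGFP+ minus EGFP-, 13 of EGFP+ minus ALL and 2 of ALL minus EGFP-. For Calcr A_52_P554768, which was not well above background in ALL or EGFP- tubules, the points are fitted values and not bounds.

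Egfr, the receptor tyrosine kinase for EGF and its relatives, was lower in EGFP+ tubules at each of its 5 tested probes. The starts of these probes span 34085 bases of chromosome 11. Of these, 2 were printed as 10 spots each on the array, which assigns them to the transcript variants 1 and 2. Other tested probes share these assignments and no probe was placed in an exon, so whether a probe reads 1 variant alone is not known. The variant 1 probe (A_52_P106259, chr11:16813815-16813874, plus strand) read -0.19, -0.10, -0.13 and 0.15 in EGFP+, 1.64, 1.84, 1.82 and 2.31 in ALL, and 1.87, 1.98, 1.87 and 2.53 in EGFP- tubules. All EGFP+ values lay below all others, and ALL and EGFP- overlapped. EGFP+ was 4.37-fold below EGFP- (-2.13 ± 0.18 SE, adjusted p = 1.1e-06, with -2.01, -2.10 and -2.05 within slides) and 3.92-fold below ALL (-1.97, adjusted p = 2.7e-06). ALL and EGFP- differed by -0.16 (95% confidence interval -0.56 to 0.24, adjusted p = 1).

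The variant 2 probe of Egfr (A_51_P392242, chr11:16787385-16787444, plus strand) read -1.40, -1.18, -1.27 and -1.35 in EGFP+, 0.41, 1.05, 0.54 and 1.31 in ALL, and 0.63, 1.10, 0.54 and 1.47 in EGFP- tubules. EGFP+ values were again below all others, and those of ALL and EGFP- were interleaved. Its EGFP+ against EGFP- difference was -2.23 ± 0.24 (SE), or 4.70-fold (adjusted p = 6.8e-06). The difference at the variant 1 probe minus that at the variant 2 probe was 0.11 ± 0.27 (SD over 4 mice) and positive in 2 of 4 mice. These 2 probes thus did not differ beyond the spread between mice, which does not show that the variants themselves behave alike. Over the 5 probes EGFP+ was 3.87-fold to 4.70-fold below EGFP- (largest adjusted p = 1.1e-05), and the differences from ALL ran from -2.13 to -1.85 (largest adjusted p = 1.7e-05). None of the 5 passed between ALL and EGFP-, where differences ran from -0.16 to -0.07.

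Of the remaining Egfr probes, A_52_P56471, printed above, ranged from -1.72 to -1.20 in EGFP+, from 0.22 to 1.03 in ALL and from 0.31 to 1.14 in EGFP- tubules (difference -2.17 ± 0.23 SE). A_52_P175190 (chr11:16817630-16817689, plus strand) ranged from -4.45 to -3.26 in EGFP+ and from -2.20 to -1.99 in EGFP- tubules. A_52_P674338 (chr11:16812181-16812240, plus strand) ranged from -4.21 to -3.91 and from -2.32 to -1.86. These last probes were the dimmer ones, and with normexp background correction their EGFP+ against EGFP- differences of -1.95 and -1.99 became -0.62 (adjusted p = 0.0985) and -0.50 (adjusted p = 0.168). Their differences from ALL, -1.88 and -1.85, became -0.86 (adjusted p = 0.0444) and -0.73 (adjusted p = 0.0776). The untested probe, A_52_P5855 (chr11:16655638-16655697, plus strand), was well above background on 1 array, that of EGFP+ tubules of mouse 1. All 10 proximal tubule markers fell with Egfr, with summed levels of 3.85 to 5.40 in EGFP+ and 9.17 to 9.76 in EGFP- tubules, and their part in the Egfr difference was not tested.

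**Figure D3:**
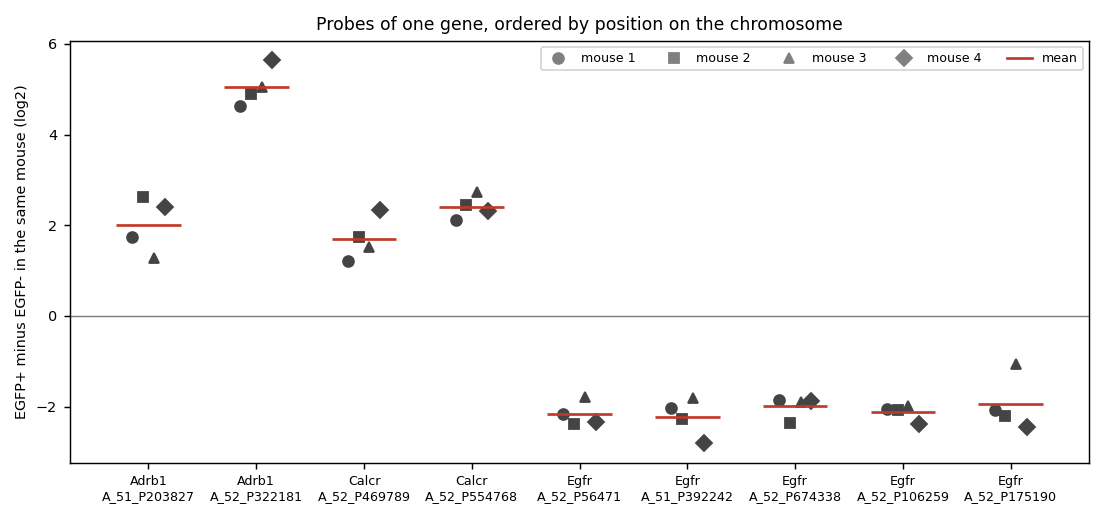
EGFP+ minus EGFP- difference of each mouse (log2) at the tested probes of Adrb1, Calcr and Egfr, with probes of 1 gene in order of position on the chromosome. Symbols are mice and the bar is the mean of the 4. The Adrb1 probes are centred on 2.01 and 5.06, while the 5 Egfr probes all lie between -2.81 and -1.06 in every mouse.

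Avpr2, the vasopressin receptor that raises cyclic AMP and brings water channels to the membrane of collecting duct cells, was lower in EGFP+ tubules. Its probe (A_51_P306933, chrX:70146949-70147008, plus strand) read -2.16, -1.72, -2.02 and -1.98 in EGFP+, 0.39, 0.06, -0.02 and -0.38 in ALL, and 0.36, 0.09, 0.26 and 0.03 in EGFP- tubules. EGFP+ stood below both other fractions in every mouse, and ALL and EGFP- overlapped. EGFP+ was 4.46-fold below EGFP- (-2.16 ± 0.16 SE, 95% confidence interval of the fold 3.48 to 5.72, adjusted p = 4.1e-07) and 3.96-fold below ALL (adjusted p = 1.1e-06). Within slides the difference from EGFP- was -2.30, -2.11 and -2.13. ALL and EGFP- differed by -0.17 (95% confidence interval -0.53 to 0.19, adjusted p = 1). Of 7 principal cell markers, 5 were lower and 2 higher in EGFP+ tubules, with summed levels of 3.01 to 3.49 against 5.11 to 5.29 in EGFP-. The water channel Aqp2 was 12-fold lower among them, and the part of these cells in the Avpr2 difference was not tested.

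Avpr1a, the vasopressin receptor that signals through phospholipase C, did not pass the test in any comparison of fractions. Its probe (A_51_P315042, chr10:121856139-121856198, plus strand) read -0.28, 0.24, 0.35 and -0.12 in EGFP+, 0.53, 0.45, 0.74 and -0.38 in ALL, and 0.67, 0.50, 0.81 and -0.11 in EGFP- tubules. The 3 fractions overlapped, and mouse 4 was the lowest in ALL and EGFP-. EGFP+ was below EGFP- in 4 of 4 mice, by 0.01 to 0.95, and the fitted difference was -0.42 (95% confidence interval -0.998 to 0.162, adjusted p = 0.20). With the mouse as a block the same difference had an adjusted p of 0.0486, and without mouse 4 it was -0.55 with an adjusted p of 0.0305. The differences from ALL (-0.29, adjusted p = 0.38) and between ALL and EGFP- (-0.13, adjusted p = 1) were smaller. Of 7 intercalated cell markers 1 rose, 2 fell and 4 did not pass, with summed levels of 4.32 to 4.84 in EGFP+ and 4.85 to 5.36 in EGFP- tubules.

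Pth1r, the receptor of parathyroid hormone, was bright in every fraction and lower in EGFP+ tubules by less than the other receptors that fell. Its probe (A_51_P327874) read 5.23, 5.37, 5.22 and 5.39 in EGFP+ tubules, 5.77, 5.88 and 6.85 in ALL of mice 1, 3 and 4, and 5.81, 6.12, 5.92 and 6.74 in EGFP- tubules. The ALL spot of mouse 2 carried an outlier mark and was left out of the fit. EGFP+ values lay below all others, and mouse 4 was the highest in ALL and EGFP-. EGFP+ was 1.80-fold below EGFP- (-0.84 ± 0.26 SE, adjusted p = 0.016, with -0.51, -0.90 and -0.94 within slides) and 1.82-fold below ALL (-0.86, adjusted p = 0.023). ALL and EGFP- differed by 0.02 (95% confidence interval -0.60 to 0.63, adjusted p = 1).

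The Pth1r calls depended on the scaling and on single mice. With the arrays centred on their medians the difference from EGFP- was -0.69 (adjusted p = 0.0833) and from ALL -0.65 (adjusted p = 0.123). Without mouse 2 these had adjusted p = 0.0585 and 0.0597, and without mouse 3 adjusted p = 0.0557 and 0.0640. The signal stood at 8.71% to 14.0% of the brightest probe's on EGFP+ arrays and at 22.5% to 28.6% on EGFP- arrays, and no spot of this probe was saturated. Proximal tubule markers fell by much more, with Slc34a1, a sodium phosphate cotransporter, 26.3-fold and Lrp2, the endocytic receptor megalin, 24.1-fold lower in EGFP+ tubules. The part of proximal tubules in the Pth1r difference was not tested.

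Insr, the receptor tyrosine kinase for insulin, was near the limit of detection at its named probe (A_52_P6490). It read -4.77, -4.78, -5.17 and -4.69 in EGFP+, -4.30, -4.30, -4.51 and -4.78 in ALL, and -4.71, -4.35, -4.80 and -4.70 in EGFP- tubules, and was well above background on 9 of 12 arrays. The fractions overlapped. EGFP+ and EGFP- differed by -0.21 (95% confidence interval -0.55 to 0.13, adjusted p = 0.27), and this value turned to 0.83 with normexp background correction, without passing the threshold. The difference from ALL was -0.38 (adjusted p = 0.058), with an adjusted p of 0.0324 with the mouse as a block and 0.0266 without mouse 4. A further probe (A_52_P494514, chr8:3151667-3151726) carries an older clone name, D630014A15Rik, that the reference table lists as a synonym of Insr. It lay outside the rule and was looked at after the values of the other probe were seen. It was well above background on every array, with levels of 1.34 ± 0.10 (EGFP+), 1.07 ± 0.19 (ALL) and 1.14 ± 0.28 (EGFP-, SD over 4 mice), and did not pass either (0.20, adjusted p = 0.282 for EGFP+ against EGFP-).

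Against the total suspension, the comparison of EGFP+ with ALL gave 6 of 15 receptor probes that rose, 7 that fell and 2 that did not pass, where 54% of all tested probes were called, 31.1% higher and 22.9% lower. Values did not overlap for 12 of the 14 receptor probes with a value on every array, against 51.1% of all such probes. Calcr A_52_P554768, which entered the test through EGFP+ tubules alone, is among the 6 and the 12, where it is again no support for a difference. The comparison with ALL shares the EGFP+ arrays with the comparison above, so the counts are not independent of it, and they are weighted towards Egfr in the same way. Between ALL and EGFP- tubules 2 of 15 probes were higher and none lower, against 1.08% of all tested probes called, 278 higher and 1 lower (0.00387%). These were Adrb1 A_52_P322181 and Gcgr, whose fractions did not overlap, as was so for 2.54% of all probes.

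Female and male mice were compared over the mean of each mouse's fractions, with 2 mice per sex. None of the 15 receptor probes passed, against 1.05% of all probes, and 272 of 25818 probes were called. At Casr females averaged -2.64 and males -3.30 (0.66, adjusted p = 0.42). At Adrb1 females averaged -2.52 and males -3.195 at A_51_P203827 (0.68, unadjusted p = 0.00941, adjusted p = 0.16) and -0.66 and -1.17 at A_52_P322181 (0.51, adjusted p = 0.23). At Egfr females averaged -0.09 and males 0.40 at A_51_P392242 (-0.49, adjusted p = 0.18), and -0.33 and 0.21 at A_52_P56471 (-0.54, adjusted p = 0.18). Pth1r differed by -0.69 (adjusted p = 0.19), a value that rests on 1 male because mouse 2 lacked its ALL spot. Whether the sexes differed in how far EGFP+ stood from EGFP- was tested in the same 4 mice, and 0 receptor probes and 0% of all probes passed, with 2947 of 25818 probes at an unadjusted p under 0.05. Adrb1 A_51_P203827 had the lowest unadjusted p among the receptors there, 0.014, with a female minus male value of -1.0 (adjusted p = 0.36).

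Genes of the pathways below these receptors were described by lists, with each gene taken at its tested probe with the highest mean. The share of all tested probes called, 56.7% (32.8% higher and 23.9% lower), is the measure for each count. Of 19 G proteins and regulators tested, 5 rose, 6 fell and 8 did not pass the threshold in EGFP+ against EGFP- tubules, with a median of 0.08, so that 11 of 19 were called, near the share over all probes. Adrbk2, a kinase that phosphorylates activated receptors, was 8.47-fold higher (3.08 ± 0.25 SE). Gnai2, an inhibitory G protein subunit, was 4.49-fold lower (-2.17 ± 0.09 SE), Ramp3, an accessory protein of calcitonin family receptors, 4.21-fold, Rgs14 3.88-fold and Gna12 3.06-fold.

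Of 23 enzymes and effectors of second messengers, 6 rose, 13 fell and 4 did not pass, with a median of -0.44, against 32.8% of all probes higher and 23.9% lower. Among those that fell, Adcy3, Adcy7, Plcb2, Pde3a and Pde4d were well above background on no EGFP+ array. They entered the test only through the fractions where they are high, so their place in the count is no support for a difference. Pde3b, a phosphodiesterase that breaks down cyclic AMP, was 7.16-fold higher (2.84 ± 0.36 SE), and its relative Pde3a was at least 10.1-fold lower, with no EGFP+ array well above background. The adenylyl cyclases Adcy4 and Adcy7 were 9.65-fold and at least 6.25-fold lower, and Plcb1, a phospholipase C, was 9.03-fold lower.

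Of 16 genes listed under insulin signalling, 6 rose, 4 fell and 6 did not pass, against 56.7% of all probes called, with a median of 0.00 against 0.15 over all probes. Grb14, an adaptor that binds and restrains the insulin receptor, was 8.38-fold higher (3.07 ± 0.17 SE) and Irs1, a substrate of that receptor, 4.74-fold higher (2.24 ± 0.21 SE). Pdk1 was 11.1-fold higher. It is pyruvate dehydrogenase kinase 1, an enzyme of mitochondrial fuel choice, while the kinase of the insulin pathway with a like name, Pdpk1, read 0.56 higher and did not pass (adjusted p = 0.22). Without Pdk1, 5 of 15 genes rose, 4 fell and 6 did not pass, with a median of -0.12, a count made after the values were seen. Foxo3 was 2.82-fold higher, with 1 of 4 EGFP- arrays well above background, and Mtor 2.93-fold lower.

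Of 15 genes of EGF family ligands, receptors and regulators, 3 rose, 7 fell and 5 did not pass, with a median of -0.26, against 56.7% of all probes called. Tgfa and Nrg4, both among those that fell, were well above background on no EGFP+ array. Both entered the test only through the other fractions, so their place in the count is no support for a difference. Egf, the ligand, was 8.73-fold higher in EGFP+ than in EGFP- tubules (3.13 ± 0.21 SE, adjusted p = 1.6e-07), with levels of 7.85 ± 0.17 (EGFP+), 5.97 ± 0.17 (ALL) and 4.73 ± 0.49 (EGFP-, SD over 4 mice), the opposite direction to its receptor Egfr. Tgfa and Hbegf, other ligands of Egfr, were at least 3.44-fold and 4.42-fold lower. Errfi1 and Lrig1, both of which restrain signalling by this receptor, were 5.26-fold (-2.40 ± 0.26 SE) and 3.66-fold lower.

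Of 38 other hormone receptors 24 were tested, and 2 rose, 16 fell and 6 did not pass, with a median of -1.84, against 32.8% of all probes higher and 23.9% lower. Agtr1a, the angiotensin II receptor, was 41.7-fold lower (-5.38 ± 0.19 SE), at -2.61 ± 0.45 in EGFP+ and 2.77 ± 0.11 in EGFP- tubules (SD, n = 4). The natriuretic peptide receptors Npr3 and Npr2 were 35.6-fold and 24.0-fold lower. Adra1a, an alpha-1 adrenergic receptor, was at least 5.61-fold lower, with 0 of 4 EGFP+ arrays well above background. Some receptors that fell, Adra1a, Npr1 and Adra2b among them, entered the test only through ALL and EGFP- tubules. Their place in the count is no support for a difference. Markers of cells outside the tubule fell with this list: 6 of 6 podocyte, 7 of 7 endothelial and 7 of 8 smooth muscle and stroma markers were lower. Of 6 leukocyte markers 4 were lower and 2 did not pass. Within the tubule, all 10 proximal tubule markers were lower as well. Endothelial summed levels were 1.15 to 1.57 in EGFP+ and 5.07 to 5.85 in EGFP- tubules, and the part of any of these cell types in the list was not tested.

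**Figure D4:**
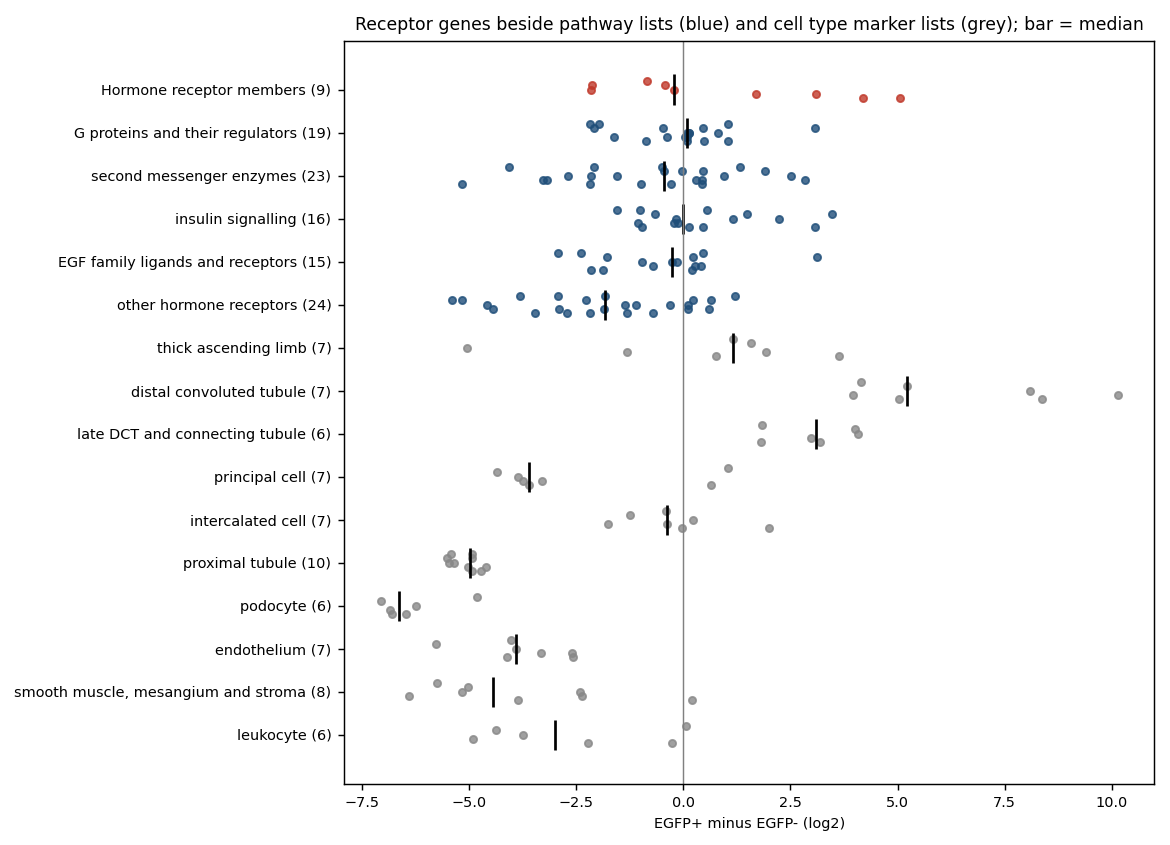
EGFP+ minus EGFP- difference (log2) of each gene in the receptor set (red), the 5 pathway lists (blue) and the 10 marker lists (grey), with the number of tested genes in brackets and a bar at the median. Each gene is its tested probe with the highest mean, and genes not well above background in a fraction are at their fitted value. The 9 receptors are spread on both sides of 0, while other hormone receptors have a median of -1.84 and DCT markers one of 5.22.

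The genes whose levels followed each receptor most closely over the arrays were found by the root mean square distance between levels centred on their own means. Distances were taken to 25310 tested probes with a value on all 12 arrays. Of these, only probes whose gene name was found in the reference table could be named, with 1 probe per gene and receptors of the set left out. The arrays share 3 fractions and 4 mice, so these are descriptions. Gcgr lay closest to Gca (distance 0.087, Pearson's r = 0.998), Sfxn3 and Tmem171. Adrb1, at A_52_P322181, lay closest to Tmem72 (0.151, r = 0.998), Cacnb4 and Prkd1, and Casr to Slc35g1 (0.283, r = 0.991), Kiss1r and Septin6. Calcr, at A_52_P469789, was nearest to Cyp4v3 (0.169, r = 0.981), 4430402I18Rik and Sdk1. Egfr, at A_52_P106259, was nearest to Qdpr (0.093, r = 0.996), Sephs2 and Scrn2, and Avpr2 to Pld2 (0.144, r = 0.990), Plxnd1 and Sox17. Avpr1a followed Fgfbp1 (0.146, r = 0.936), Foxi1, a transcription factor of intercalated cells (0.155, r = 0.943), and Tspan13. Insr followed Nit1 (0.132, r = 0.918), Dctn1 and Samd4b. Pth1r, over the 11 arrays that measured it and the 25557 probes with a value on them, followed Pex16 (0.088, r = 0.989), Rer1 and Gfer.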

How the data were processed

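Per the file headers, RNA labelled with Cy3 was read on Agilent one-colour arrays of design 014868 with Feature Extraction 9.5.3.1. The authors deposited intensity values of each spot on a linear scale, of which the processed signal, already background-corrected, was used. Per the labels, RNA came from an Ambion microRNA extraction kit and was amplified with an Agilent low-input kit. A deposited value table was not used. Here the log2 of the deposited signal was taken, each array's 75th percentile subtracted, marked outlier spots left out and spots of a probe averaged. Differences were fitted with limma 3.58.1 (R 4.3.3) on all 12 arrays with 1 coefficient per fraction, and p-values were adjusted by Benjamini-Hochberg over all tested probes. The fit was run on simulated data with independent noise on each array. That run held no mouse effect, so it cannot show how the pairing of arrays bears on the p-values. Fractions of the same mouse pair the arrays: their deviations from the fraction means correlated at 0.225 to 0.807 in 12 of 12 pairs (median 0.325). Across fractions, the 36 pairs of different mice correlated at -0.677 to 0.586 (median -0.188), so the ranges overlapped. Deviations from a fraction's mean cancel over its mice. Where pairs of the same mouse correlate positively, this alone draws pairs of different mice towards negative values, so their negative median is no separate measure of pairing. The main fit holds no mouse term.

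The receptors, lists and tests were chosen with earlier results of these data known. Named from each pathway list were the up to 5 genes with the largest called EGFP+ against EGFP- difference, and for each receptor the 3 nearest genes. A gene that this rule names is not reported here. Alternatives were normexp (offset 50), quantile normalization, median centring, other filters, marked spots kept, slide and mouse blocks, and leaving out each mouse. The small number of arrays bounds the precision. Slides mix sex with fraction in part, and EGFP+ against EGFP- differences within slides cross mice and sexes.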

Additional observations from a re-analysis of the deposited data

Results flagged for a closer look

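In 3 of 48 groups of 4 arrays (16 probes in 3 fractions) 1 array stood far from the other mice of its fraction, and chance gives about 1 such group in 20. The group of Pth1r in ALL, with 3 values, is counted among the 48 but could not be checked. Calcr A_52_P469789 in EGFP- tubules was -4.98 in mouse 4, where it was not well above background, against -3.97 to -3.94 in the others. Egfr A_52_P106259 in EGFP- tubules was 2.53 in mouse 4 against 1.87 to 1.98. Egfr A_52_P5855 in EGFP+ tubules was -2.71 in mouse 1, its only array well above background, against -7.50 to -7.03.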

How the results depend on the processing

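With normexp background correction the called probes were 3787 lower for EGFP+ against EGFP-, 4566 higher and 3293 lower for EGFP+ against ALL, and 183 higher for ALL against EGFP-, where 1 receptor probe was higher. For sex they were 432 higher and 4349 lower, with 5 receptor probes lower, and Calcr A_52_P554768 turned from 0.06 to -0.50 (adjusted p = 0.0329). Receptor probes with normexp were 6 higher and 5 lower in EGFP+ than in EGFP- tubules, and 4 higher and 6 lower than in ALL. With median centring sex gave 208 higher and 634 lower, and its dependence 17 higher and 2 lower. With quantile normalization the dependence gave 9 and 2. Sex gave 10 and 43 with no filter, and 8 and 44 with the filter at 1 array. The causes were not tested. Median centring moved the median EGFP+ against EGFP- difference of all probes from 0.15 to 0.30 and the share of calls that were higher from 57.9% to 65.5%, and normexp to 0.34 and 66.7%.

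Leaving out each mouse in turn gave 102 to 329 probes higher, 0 to 1 lower and 0 to 2 receptor probes higher for ALL against EGFP-, and 4 to 11 higher and 24 to 40 lower for sex, with fewer arrays in each fit. The fits without mouse 1, 2 and 3 gave 139, 102 and 114 probes higher for ALL against EGFP-. Over all 4 fits, EGFP+ against EGFP- gave 6 receptor probes higher and 6 to 8 lower, the 8 without mouse 4.

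With the mouse as a replicate block, 8 receptor probes were lower in EGFP+ than in EGFP- tubules and 8 lower than in ALL, with 6 higher in each. The added calls were Avpr1a against EGFP- and Insr against ALL, and the block changed no other receptor call. Slide as a block changed none.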

Other observations

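Some genes of the pathway lists fell outside the naming rule and were chosen after their values were seen. Vdr, the vitamin D receptor, and Nr3c2, the mineralocorticoid receptor, were the 2 of 24 other hormone receptors that were higher in EGFP+ than in EGFP- tubules, by 1.22 ± 0.25 (SE, limma adjusted p = 0.0013) and 0.64 ± 0.22 (adjusted p = 0.029). Levels of Vdr were 5.83 ± 0.16 (EGFP+), 4.82 ± 0.42 (ALL) and 4.62 ± 0.47 (EGFP-, SD over 4 mice). Of the 6 adenylyl cyclases listed, Adcy6 was 3.76-fold higher (1.91 ± 0.13 SE, adjusted p = 1.3e-07), at 4.66 ± 0.10 in EGFP+ and 2.75 ± 0.15 in EGFP- tubules, and Adcy3, Adcy4, Adcy5, Adcy7 and Adcy9 were lower. Pde4a, another phosphodiesterase, was 5.67-fold higher and Pde4d at least 3.35-fold lower.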
